A study of Mus musculus with 7 samples.

Results

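The mitosis genes are 40 genes whose products act in the entry into, progress through and exit from cell division. They were found by symbol in a deposited table of 24353 genes, in which all 40 had a row, and were read across all 7 libraries. The list was chosen by the known function of its members, which are given here by mouse symbol and in 8 groups by role. Levels are in FPKM, which counts fragments for each kilobase of a transcript and each unit of library size. In at least 1 library, all 40 reached an FPKM of 1. Only Espl1 did so in estradiol libraries alone.

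The study sequenced total RNA of cells labelled as endometrial epithelium from C57BL/6 female mice, all without ovaries. Oophorectomy took place at 6 to 7 weeks of age. In the arms of 6 mice each, among 18 that were randomized, mice received vehicle, subcutaneous tamoxifen at 0.5 mg per day, or the same tamoxifen together with oral alpelisib at 30 mg/kg per day. Alpelisib was dissolved in PEG400, Tween 80 and propylene glycol, and tamoxifen in peanut oil. A further 2 mice carried a pellet of 0.01 mg estradiol made to last 60 days, and every treatment ran for 28 days. Values given for both drugs are those of tamoxifen plus alpelisib. There are 2 libraries each, labelled as mouse 1 and mouse 2, for estradiol, tamoxifen and tamoxifen plus alpelisib, and 1 for vehicle. The sources used here do not give whether the vehicle library holds 1 mouse or a pool, or how epithelium was separated from the uterine horns. Tamoxifen binds the estrogen receptor and acts in part as an estrogen in the uterus. Alpelisib blocks the alpha isoform of phosphoinositide 3-kinase.

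Dividing cells make most mitotic transcripts late in the cycle and remove them as they leave division. In resting cells the DREAM complex holds these genes down through a promoter element called the cell cycle homology region. In cycling cells MYBL2 with the MuvB core and then FOXM1 switch them on, and many of the promoters also carry CCAAT boxes bound by the factor NF-Y. Estradiol is known for driving epithelial cells of the mouse uterus into division. In RNA from many cells, fewer dividing cells and less mitotic RNA per cell cannot be told apart.

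Promoter windows from RefSeq, on the mouse build GRCm38.p6, held 250 bases before and 50 bases after each start. They were matched by symbol for 33 of the 40 genes, with 34 windows because Prc1 has 2. Aurkb, Kif20a, Incenp, Cdca2, Ccna2, Tpx2 and Foxm1 had none. The windows were searched on both strands for TTTGAA, the core of the cell cycle homology region, and for CCAAT. Matches may overlap, as CCAAT and its reverse form do in the Ube2c window. The windows below show 200 bases before and 30 bases after the start, in the direction of transcription, with each match on either strand in capitals (TTCAAA and ATTGG are the reverse forms). The first 6 belong to genes whose values are given below, and were chosen from windows that hold both motifs to show how the matches lie. Mad2l1 and Pttg1, chosen after their values were seen, are the members whose levels departed most from the others.
Ccnb2: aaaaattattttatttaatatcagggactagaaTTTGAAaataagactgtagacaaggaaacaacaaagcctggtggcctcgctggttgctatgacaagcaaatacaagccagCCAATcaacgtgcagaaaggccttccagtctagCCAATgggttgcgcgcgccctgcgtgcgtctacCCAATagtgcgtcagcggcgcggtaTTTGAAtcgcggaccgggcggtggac
Cdk1: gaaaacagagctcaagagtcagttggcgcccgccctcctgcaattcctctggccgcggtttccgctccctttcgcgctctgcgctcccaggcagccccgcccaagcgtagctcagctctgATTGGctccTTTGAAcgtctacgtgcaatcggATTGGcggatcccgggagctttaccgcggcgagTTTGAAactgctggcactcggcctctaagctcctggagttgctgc
Mki67: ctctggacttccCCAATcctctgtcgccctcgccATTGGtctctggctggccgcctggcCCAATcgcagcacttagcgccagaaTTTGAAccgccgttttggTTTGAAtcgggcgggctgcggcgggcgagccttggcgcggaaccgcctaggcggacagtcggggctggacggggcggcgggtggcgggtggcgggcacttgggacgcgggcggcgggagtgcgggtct
Top2a: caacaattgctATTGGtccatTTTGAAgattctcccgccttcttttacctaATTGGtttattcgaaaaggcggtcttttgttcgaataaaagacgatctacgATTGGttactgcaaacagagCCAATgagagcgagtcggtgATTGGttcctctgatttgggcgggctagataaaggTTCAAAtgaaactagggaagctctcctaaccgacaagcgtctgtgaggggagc
Ube2c: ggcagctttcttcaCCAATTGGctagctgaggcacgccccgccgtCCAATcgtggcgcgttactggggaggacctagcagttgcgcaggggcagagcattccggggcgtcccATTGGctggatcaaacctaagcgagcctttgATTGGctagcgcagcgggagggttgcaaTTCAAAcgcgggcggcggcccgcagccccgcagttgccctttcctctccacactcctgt
Cdc20: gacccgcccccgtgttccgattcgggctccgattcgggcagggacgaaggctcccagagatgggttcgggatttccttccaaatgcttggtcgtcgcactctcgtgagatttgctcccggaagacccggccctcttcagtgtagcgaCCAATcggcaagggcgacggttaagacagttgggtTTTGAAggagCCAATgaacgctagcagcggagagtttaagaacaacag
Mad2l1: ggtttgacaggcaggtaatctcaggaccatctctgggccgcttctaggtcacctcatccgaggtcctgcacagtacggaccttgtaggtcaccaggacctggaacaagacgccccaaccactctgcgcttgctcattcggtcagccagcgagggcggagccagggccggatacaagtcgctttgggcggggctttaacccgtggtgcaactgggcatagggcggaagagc
Pttg1: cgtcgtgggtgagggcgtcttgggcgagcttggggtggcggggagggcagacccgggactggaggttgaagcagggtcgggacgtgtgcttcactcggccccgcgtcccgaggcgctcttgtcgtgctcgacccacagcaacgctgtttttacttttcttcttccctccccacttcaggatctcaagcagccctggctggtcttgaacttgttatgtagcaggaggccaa
The windows lie at chr9:70421525-70421754 for Ccnb2, chr10:69352883-69353112 for Cdk1, chr7:135716350-135716579 for Mki67 and chr11:99024160-99024389 for Top2a, all on the minus strand. That of Ube2c is at chr2:164769729-164769958 on the plus strand, and that of Cdc20 at chr4:118437314-118437543 on the minus strand. Mad2l1 has its window at chr6:66535021-66535250 on the plus strand, and Pttg1 at chr11:43425952-43426181 on the minus strand.

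In the full windows, TTTGAA was present in 25 of the 34 member windows (73.5%), against 17.9% of all 32851 windows and 12.0% of the 12021 windows of genes tested here. CCAAT was present in 24 (70.6%), against 37.4% of all windows and 37.5% of those of tested genes. Both motifs occurred together in 21 windows (61.8%), against 6.95% of all windows. Neither occurred in 6 windows, those of Birc5, Mad2l1, Ncaph, Nuf2, Nusap1 and Pttg1. Among them Birc5, Nuf2 and Nusap1 had the order of group levels, given below, that 36 of the 40 genes shared. Cenpa, which had another order, held both motifs. The relation of motifs to levels was not tested. The matches describe the letters in the windows and are not a measure of binding.

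**Figure D1:**
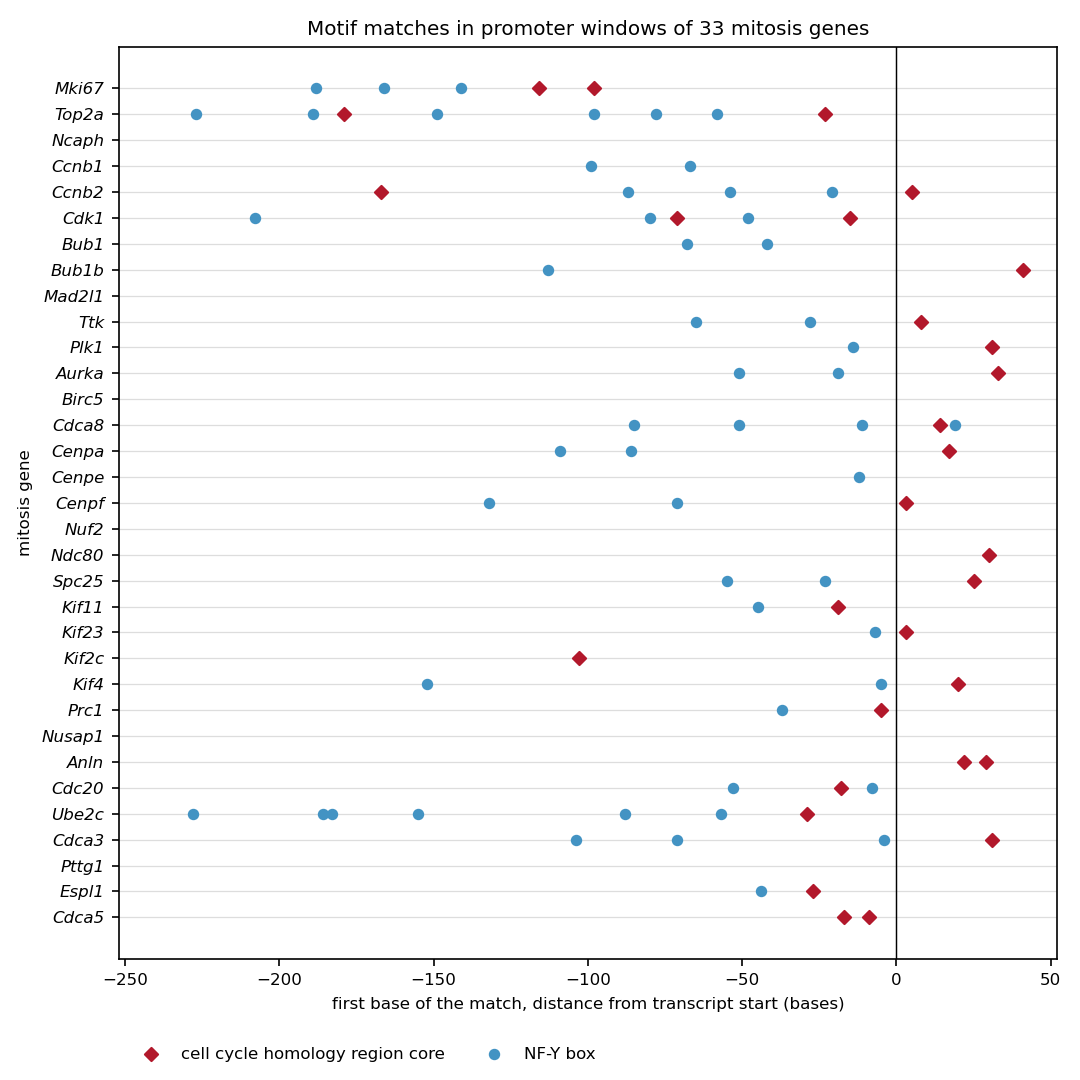
Positions of the motif matches in the promoter windows of 33 mitosis genes, plotted as the first base of each match against its distance in bases from the transcript start (Prc1 by 1 of its 2 windows). Diamonds mark the cell cycle homology region core and circles the NF-Y box, and the 6 rows with no symbol are the windows with neither motif.

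The smallest step between low values put the depth at about 16100000 to 19300000 fragments in 6 libraries. Estradiol 2 gave no such step and has no estimate. At those depths the members rested on about 7 to 4089 fragments each. The lowest count was Ttk in tamoxifen plus alpelisib 2, and 2 members lay under 20 fragments in vehicle. All 8 epithelial markers examined, among them Epcam, Cdh1 and Krt8, were expressed in every library. Their summed FPKM was 3028 and 2559 with estradiol, 7042 with vehicle, 3847 and 5341 with tamoxifen, and 5798 and 6280 with both drugs. The ribosomal precursor Rn45s, a sign of leftover ribosomal RNA, stood at 764 and 2276 with estradiol and at 189 to 530.4 in the other libraries.

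The mitosis genes were highest with estradiol, intermediate with tamoxifen and lowest with vehicle and with tamoxifen plus alpelisib. The median FPKM of the 40 genes was 13.4 and 11.8 in the estradiol libraries, 3.05 and 3.09 with tamoxifen, 1.41 and 1.27 with tamoxifen plus alpelisib, and 1.26 with vehicle. In 38 of the 40 genes both estradiol libraries lay above the other 5 (30.1% of all tested genes). Espl1, which reached an FPKM of 1 in estradiol libraries alone, is among these 38. For 36 genes the order of the mean FPKM was estradiol, then tamoxifen, then the other two groups, of which tamoxifen plus alpelisib was the higher in 24 and vehicle in 12. Ncaph, Mad2l1, Cenpa and Pttg1 had other orders.

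**Figure D2:**
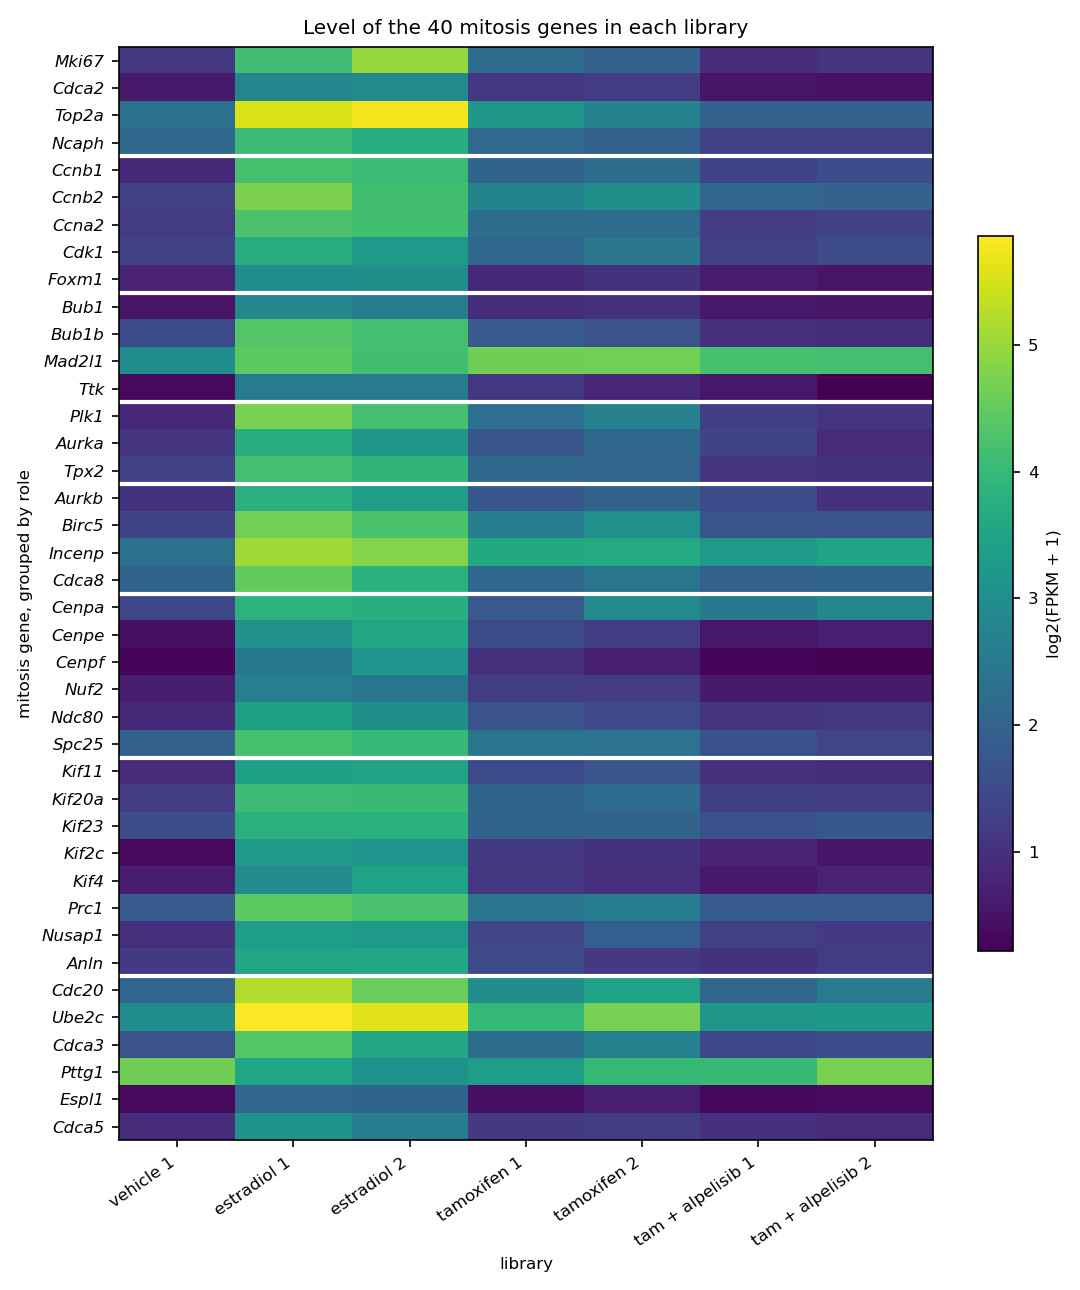
Level of each of the 40 mitosis genes (rows, grouped by role between white lines) in each of the 7 libraries (columns), as log2(FPKM + 1) by colour. The estradiol columns are the brightest for 38 genes, and Mad2l1 and Pttg1 are the rows that break the pattern.

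As ratios of mean FPKM, the median gene was 10.3 times higher with estradiol than with vehicle (0.378 to 29.6 over the 40 genes). Tamoxifen gave 2.39 times the vehicle level (0.504 to 5.85) and tamoxifen plus alpelisib 1.09 times (0.427 to 3.14). The tamoxifen level came to a median of 22.0% of the estradiol level (12.6% to 133%). Addition of alpelisib left a median of 46.3% of the level with tamoxifen alone (23.8% to 166%).

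Every comparison was tested with limma on log2(FPKM + 1) over 12314 genes, a scale on which changes of low genes are understated. A gene was called where its p, adjusted by the Benjamini-Hochberg method over those genes, was under 0.05. Vehicle has 1 library and is assumed to vary like the other groups. Nothing beyond the mouse numbers states that libraries came from separate preparations, so p values measure the spread between these samples. The comparisons share libraries: vehicle serves several of them, and the tamoxifen libraries stand on opposite sides in the comparisons with vehicle and with tamoxifen plus alpelisib.

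With estradiol 39 of the 40 genes rose over vehicle and 1 fell, where 22.7% of all tested genes were called higher and 12.8% lower. Without Espl1, which passed the filter through estradiol alone, this was 38 of 39 that rose. The median log2 fold change of the 40 genes was 2.46, beside 0.12 for all genes. Increases ran from 1.32 for Mad2l1 to 3.60 for Plk1, and both estradiol libraries lay above vehicle in 39 genes (48.8% of all tested genes) and below it in 1 (34.5%).

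With tamoxifen 20 of the 40 genes rose over vehicle and 0 fell, where 14.9% of all tested genes were called higher and 24.1% lower. Both tamoxifen libraries lay above vehicle for 37 genes (36.9% of all tested genes) and both below it for 1 (50.3%). The median log2 fold change was 0.69, beside -0.12 for all genes, and called increases ran from 0.47 to 1.68. Of the 20 genes, 9 rose at least 2-fold on the log2(FPKM + 1) scale (8.63% of tested genes did so). By mean FPKM other called genes, such as Cdk1 at 2.65 times and Kif20a at 2.50 times the vehicle level, also passed 2-fold. The count fell to 13 without tamoxifen 2 and to 10 without either alpelisib library, which enter the fit through the shared estimate of spread. The calls of Ccnb1, Ccnb2, Ccna2, Mad2l1, Plk1, Birc5, Incenp and Kif20a, 8 of the 20, held in every alternative fit, and of these only Kif20a was under 2-fold on the log2 scale.

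With alpelisib added to tamoxifen 16 of the 40 genes fell and 0 rose, where 4.81% of all tested genes were called lower and 6.93% higher. Both alpelisib libraries lay below both tamoxifen libraries for 37 genes (34.3% of all tested genes) and above them for 1 (30.2%). The median log2 fold change was -0.65, beside -0.03 for all genes, and called decreases ran from -0.60 to -1.34. On the log2(FPKM + 1) scale Plk1, Birc5, Ube2c and Tpx2 fell at least 2-fold (0.991% of tested genes). By mean FPKM other called genes were also under 50% of the tamoxifen level, such as Cdca2 at 32.6% and Ccna2 at 38.9%. This count rests on every library of the comparison: it was 4 without tamoxifen 2, 1 without tamoxifen 1 and 0 without either alpelisib library. The calls over all genes fell with it, from 1445 to 692 and 301 without tamoxifen 2 and tamoxifen 1, and to 18 and 14 without alpelisib 1 and alpelisib 2. None of the 16 calls held in every alternative fit, and no called value changed sign under any of them.

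Between tamoxifen plus alpelisib and vehicle, 3 genes were higher and 1 lower, where 13.1% and 21.8% of all tested genes were. The median log2 fold change was 0.04, beside -0.15 for all genes. The 3 higher were Mad2l1, Incenp and Ccnb1, and the lower was Ncaph. At an unadjusted p under 0.05 there were 8 genes, the others being Bub1b, Cenpa, Ccnb2 and Spc25. Of the 36 genes not called, 24 had a 95% interval that reached 1.5-fold or more on the log2(FPKM + 1) scale. A difference of that size is within their error. That scale understates changes of low genes, so the intervals of the others cannot exclude a 1.5-fold difference in FPKM. Without alpelisib 1 the calls numbered 2, and without alpelisib 2 they numbered 1.

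Relative to estradiol, both drug groups were lower. Tamoxifen was lower for 38 genes and higher for 0 (36.2% and 12.3% of all tested genes), with called log2 fold changes from -1.22 to -2.71. Tamoxifen plus alpelisib was lower for 38 and higher for 1 (37.5% and 15.7%). Mad2l1 and Pttg1 were the exceptions in each case. Both counts of 38 include Espl1, which passed the filter through estradiol alone. Scaling by median-of-ratios moved the median of all genes from -0.26 to -0.01 in the first comparison and from -0.26 to 0.00 in the second. It moved the median from -0.12 to 0.01 for tamoxifen and from 0.12 to 0.00 for estradiol, both against vehicle, and from -0.15 to -0.01 where tamoxifen plus alpelisib was set against vehicle. The split of calls over all genes moved with it, for estradiol against vehicle from 2793 higher and 1573 lower to 2128 and 2243, and for tamoxifen against vehicle from 1838 and 2969 to 2424 and 2591. Against estradiol it moved from 1519 and 4458 to 2835 and 2781 for tamoxifen, and from 1935 and 4613 to 3254 and 3105 for tamoxifen plus alpelisib. For tamoxifen plus alpelisib against vehicle it moved from 1619 and 2680 to 2183 and 2177. Under it the medians of the mitosis genes, in that order, were -1.45, -2.18, 0.81, 2.28 and 0.13.

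**Figure D3:**
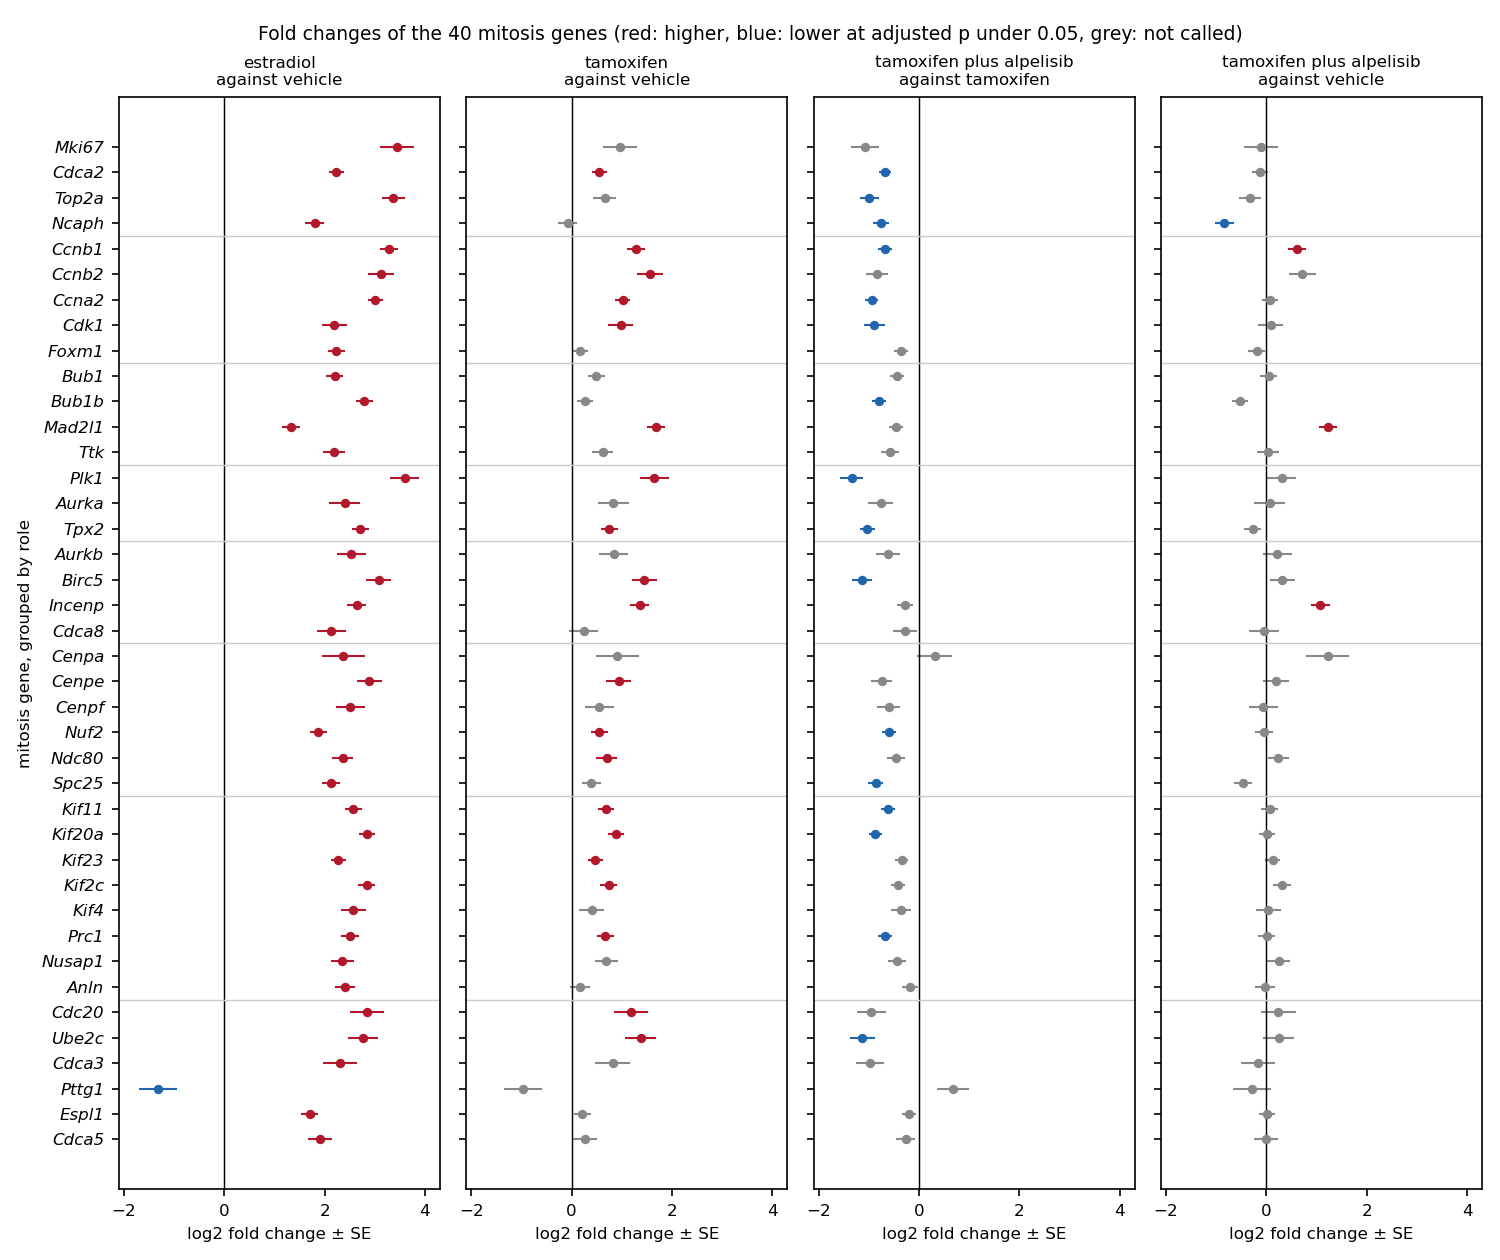
Log2 fold change ± SE of each of the 40 mitosis genes (rows, by role) in 4 comparisons, on the log2(FPKM + 1) scale. Red points were called higher and blue points lower at an adjusted p under 0.05, grey points were not called: 39 red and 1 blue with estradiol, 20 red with tamoxifen, 16 blue with alpelisib added, and 3 red and 1 blue for tamoxifen plus alpelisib against vehicle.

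Mki67 encodes Ki-67, the protein that coats mitotic chromosomes and serves as the usual marker of dividing cells. Its FPKM was 16.6 and 30.4 with estradiol, 1.17 with vehicle, 3.65 and 2.85 with tamoxifen, and 0.911 and 1.13 with both drugs. The groups did not overlap, and both alpelisib libraries lay below the vehicle library. The log2 fold change was 3.44 ± 0.34 for estradiol (adjusted p = 0.00128), but 0.96 ± 0.34 for tamoxifen against vehicle (adjusted p = 0.067) and -1.07 ± 0.28 for alpelisib added (adjusted p = 0.059), neither of which passed.

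Top2a, which encodes the topoisomerase that untangles sister chromosomes, had an FPKM of 46.5 and 53.5 with estradiol, 3.93 with vehicle, 8.20 and 5.60 with tamoxifen, and 2.97 and 2.89 with both drugs. It ranked with Ube2c as the most abundant mitosis gene under estradiol. Its change with tamoxifen did not pass (0.66 ± 0.23, adjusted p = 0.0622), whereas its fall with alpelisib added did (-0.99 ± 0.19, adjusted p = 0.0249). Cdca2, which targets a phosphatase to chromosomes at mitotic exit, stood at 6.02 and 6.46 with estradiol, 0.540 with vehicle, 1.17 and 1.34 with tamoxifen, and 0.432 and 0.388 with both drugs. It rose with tamoxifen (0.55 ± 0.15, adjusted p = 0.0315) and fell with alpelisib added (-0.68 ± 0.12, adjusted p = 0.0233).

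Ncaph, a condensin subunit that compacts chromosomes, followed another order, and is described after its values were seen. Its FPKM was 16.0 and 12.7 with estradiol, 3.38 with vehicle, 3.38 and 2.92 with tamoxifen, and 1.44 and 1.46 with both drugs. Tamoxifen and vehicle overlapped, and the alpelisib libraries lay below both. It fell both against tamoxifen (-0.76 ± 0.15, adjusted p = 0.0299) and against vehicle (-0.84 ± 0.19, adjusted p = 0.0171). The second call was lost without either alpelisib library.

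Among the cyclins, their partner kinase and Foxm1, 4 of 5 genes rose with tamoxifen and 3 of 5 fell with alpelisib added. Beside this and each later count by role, 14.9% of all tested genes rose with tamoxifen and 4.81% fell with alpelisib added. The role groups are small, and differences between them were not tested. Ccnb1, the B cyclin that drives entry into mitosis, had an FPKM of 17.7 and 15.7 with estradiol, 0.812 with vehicle, 3.10 and 3.72 with tamoxifen, and 1.60 and 1.91 with both drugs. All 4 groups were apart, with the alpelisib libraries between vehicle and tamoxifen. Ccnb1 rose with tamoxifen (1.28 ± 0.18, adjusted p = 0.00272), fell with alpelisib added (-0.68 ± 0.15, adjusted p = 0.0359) and stayed above vehicle (0.60 ± 0.18, adjusted p = 0.043). The last call was lost without any 1 of the tamoxifen or alpelisib libraries.

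Ccna2 encodes the A cyclin of S phase and early mitosis. Its FPKM was 18.5 and 16.7 with estradiol, 1.30 with vehicle, 3.72 and 3.60 with tamoxifen, and 1.35 and 1.50 with both drugs. Tamoxifen and alpelisib libraries were well apart, and it had the smallest adjusted p of the 40 genes for alpelisib added (-0.94 ± 0.13, adjusted p = 0.00935), after a rise with tamoxifen of 1.01 ± 0.15 (adjusted p = 0.00377). In the mouse annotation 14.1% of its exon bases are shared with Exosc9 on the opposite strand. The sources used here do not say whether the libraries kept strand, so reads of the pair cannot be told apart.

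Cdk1, the kinase that B cyclins activate, had an FPKM of 12.2 and 8.73 with estradiol, 1.48 with vehicle, 3.32 and 4.49 with tamoxifen, and 1.42 and 1.85 with both drugs. The alpelisib libraries lay on either side of vehicle. It rose with tamoxifen by 0.98 ± 0.25 (adjusted p = 0.0253) and changed with alpelisib added by -0.89 ± 0.21 (adjusted p = 0.0436). Ccnb2, the other B cyclin, rose with tamoxifen by 1.56 ± 0.27 (adjusted p = 0.00565), and its value with alpelisib added was -0.84 ± 0.22 (adjusted p = 0.0581).

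Foxm1, the transcription factor for many of these genes, had an FPKM of 6.96 and 7.17 with estradiol and 0.718 with vehicle. It stood at 0.818 and 1.05 with tamoxifen and at 0.590 and 0.417 with tamoxifen plus alpelisib. It rose with estradiol by 2.23 ± 0.17 (adjusted p = 0.00064). The values of 0.17 ± 0.17 for tamoxifen (adjusted p = 0.464; 95% interval -0.24 to 0.57) and -0.36 ± 0.14 for alpelisib added (adjusted p = 0.142) did not pass.

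In the spindle checkpoint, which delays anaphase until every chromosome is attached, 1 of 4 genes rose with tamoxifen and 1 of 4 fell with alpelisib added. Mad2l1, the checkpoint inhibitor of the anaphase promoting complex, had an FPKM of 20.9 and 16.8 with estradiol, 6.87 with vehicle, 24.0 and 24.5 with tamoxifen, and 17.6 and 17.3 with both drugs. It was the only mitosis gene with both tamoxifen libraries above both estradiol libraries, and its alpelisib libraries lay within the estradiol range. It rose with tamoxifen by 1.68 ± 0.18 (adjusted p = 0.000977), the lowest p of the 40 genes in that comparison, and remained above vehicle with alpelisib added (1.23 ± 0.18, adjusted p = 0.00371). Against tamoxifen the value with alpelisib was -0.45 ± 0.14 (adjusted p = 0.0971).

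Bub1b, which encodes the checkpoint kinase BUBR1, had another pattern. Its FPKM was 19.5 and 17.3 with estradiol, 1.80 with vehicle, 2.58 and 2.17 with tamoxifen, and 0.952 and 0.940 with both drugs. The alpelisib libraries were the lowest of the 7. It fell with alpelisib added (-0.79 ± 0.14, adjusted p = 0.0194), while the value of 0.27 ± 0.17 for tamoxifen did not pass (adjusted p = 0.244). The checkpoint kinases Bub1 and Ttk were not called in either comparison (0.49 ± 0.17 and 0.62 ± 0.22 with tamoxifen, adjusted p = 0.0633 and 0.0647, and -0.45 ± 0.14 and -0.58 ± 0.18 with alpelisib added, adjusted p = 0.0923 and 0.0856).

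Plk1, Aurka and Tpx2 serve the mature spindle poles: Polo-like kinase 1 and Aurora A are kinases, and TPX2 activates Aurora A. Plk1 had an FPKM of 25.4 and 17.3 with estradiol, 0.807 with vehicle, 3.82 and 5.63 with tamoxifen, and 1.39 and 1.08 with both drugs. It had the largest called changes of the set, at 3.60 ± 0.29 for estradiol (adjusted p = 0.000741) and -1.34 ± 0.24 for alpelisib added (adjusted p = 0.0206), and 1.65 ± 0.29 for tamoxifen (adjusted p = 0.00632) came second to Mad2l1.

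Tpx2 stood at 17.1 and 14.0 with estradiol, 1.51 with vehicle, 3.34 and 3.13 with tamoxifen, and 1.11 and 1.05 with both drugs, the lowest libraries of the 7. It rose with tamoxifen by 0.75 ± 0.17 (adjusted p = 0.017) and fell with alpelisib added (-1.03 ± 0.14, adjusted p = 0.0102). Aurka, at 0.83 ± 0.31 and -0.77 ± 0.26, was called in neither (adjusted p = 0.0798 and 0.109).

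The chromosomal passenger complex corrects faulty attachments and later guides cytokinesis. Its scaffold Incenp had an FPKM of 32.5 and 27.0 with estradiol, 3.92 with vehicle, 11.6 and 11.6 with tamoxifen, and 8.50 and 10.3 with both drugs. Its subunit survivin, encoded by Birc5, had 24.3 and 18.1 with estradiol, 1.60 with vehicle, 5.12 and 7.26 with tamoxifen, and 2.21 and 2.26 with both drugs. Both rose with tamoxifen, Incenp by 1.36 ± 0.19 (adjusted p = 0.00269) and Birc5 by 1.45 ± 0.25 (adjusted p = 0.00585).

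With alpelisib added, Birc5 fell (-1.14 ± 0.20, adjusted p = 0.022), and Incenp had a value of -0.28 ± 0.15 that did not pass (adjusted p = 0.285). Incenp stayed above vehicle there (1.08 ± 0.19, adjusted p = 0.00741), a call lost without alpelisib 2. The difference between the 2 subunits was not tested. The kinase Aurkb and the adaptor Cdca8 were called in neither drug comparison. Aurkb had 0.84 ± 0.29 with tamoxifen (adjusted p = 0.0634) and -0.62 ± 0.24 with alpelisib added (adjusted p = 0.147). Cdca8, which shares 10.6% of its exon bases with a gene on the opposite strand, had 0.24 ± 0.29 (adjusted p = 0.549) and -0.29 ± 0.24 (adjusted p = 0.486).

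Of the 6 centromere and kinetochore genes, 3 rose with tamoxifen and 2 fell with alpelisib added. Cenpe, a kinesin that moves chromosomes to the spindle equator, had an FPKM of 7.43 and 11.1 with estradiol, 0.359 with vehicle, 1.88 and 1.35 with tamoxifen, and 0.492 and 0.606 with both drugs. It rose with tamoxifen by 0.93 ± 0.25 (adjusted p = 0.0291), as did the NDC80 complex subunits Nuf2 (0.55 ± 0.17, adjusted p = 0.0468) and Ndc80 (0.70 ± 0.21, adjusted p = 0.0422). Each of these 3 calls was lost in at least 1 alternative. With alpelisib added Cenpe had -0.75 ± 0.21 (adjusted p = 0.0697) and Ndc80 had -0.46 ± 0.17 (adjusted p = 0.143), neither of which passed. Cenpf, a large kinetochore protein of the outer corona, was called in neither, with 0.55 ± 0.29 for tamoxifen (adjusted p = 0.184) and -0.61 ± 0.24 for alpelisib added (adjusted p = 0.154).

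Spc25, another NDC80 complex subunit, stood at 17.7 and 14.9 with estradiol, 2.95 with vehicle, 4.27 and 4.12 with tamoxifen, and 2.11 and 1.64 with both drugs. It fell with alpelisib added (-0.86 ± 0.15, adjusted p = 0.0201), together with Nuf2 (-0.60 ± 0.14, adjusted p = 0.0456). Cenpa, the histone variant that marks the centromere, is named after its values were seen because its SE was the largest of the 40. It had an FPKM of 13.7 and 12.6 with estradiol, 1.72 with vehicle, 2.47 and 6.56 with tamoxifen, and 4.64 and 6.18 with both drugs. The tamoxifen libraries enclosed the alpelisib libraries, and neither drug comparison passed (0.91 ± 0.43, adjusted p = 0.143, and 0.31 ± 0.35, adjusted p = 0.613).

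The kinesins and other microtubule binding proteins, which build the spindle and its midzone, numbered 8, of which 5 rose with tamoxifen and 3 fell with alpelisib added. Kif20a, a kinesin of the midzone, had an FPKM of 16.0 and 15.6 with estradiol, 1.33 with vehicle, 3.07 and 3.58 with tamoxifen, and 1.38 and 1.34 with both drugs. The alpelisib libraries lay next to the vehicle value. Kif20a rose with tamoxifen by 0.89 ± 0.16 (adjusted p = 0.00623) and fell with alpelisib added (-0.87 ± 0.13, adjusted p = 0.0119). It shares 31.1% of its exon bases with Cdc23 on the opposite strand.

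Kif11, which pushes spindle poles apart, rose with tamoxifen by 0.68 ± 0.17 (adjusted p = 0.02) and changed with alpelisib added by -0.62 ± 0.14 (adjusted p = 0.0378). Prc1, which bundles midzone microtubules, gave 0.67 ± 0.17 (adjusted p = 0.023) and -0.67 ± 0.14 (adjusted p = 0.0326), and shares 23.4% of its exon bases with Rccd1. The microtubule depolymerase gene Kif2c (0.74 ± 0.17, adjusted p = 0.0183) and the midzone kinesin gene Kif23 (0.47 ± 0.15, adjusted p = 0.0485) also rose with tamoxifen. Their values with alpelisib added were -0.42 ± 0.14 and -0.34 ± 0.12 (adjusted p = 0.112 and 0.126).

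Kif4, Nusap1 and Anln were called in neither comparison. The chromosome-bound kinesin gene Kif4 had 0.40 and -0.36 for tamoxifen and for alpelisib added, and shares 16.7% of its exon bases with Pdzd11. Nusap1, which bundles spindle microtubules, had 0.69 and -0.44. The cytokinesis gene Anln had 0.17 and -0.18, and its tamoxifen and alpelisib libraries overlapped.

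The last group comprises regulators of anaphase and cohesion. Ube2c, the ubiquitin-conjugating enzyme of the anaphase promoting complex, had an FPKM of 57.3 and 47.4 with estradiol, 6.82 with vehicle, 14.7 and 25.1 with tamoxifen, and 8.22 and 8.29 with both drugs. It rose with tamoxifen by 1.37 ± 0.31 (adjusted p = 0.015) and fell with alpelisib added (-1.13 ± 0.25, adjusted p = 0.0388). It shares 22.8% of its exon bases with the troponin gene Tnnc2 on the opposite strand. Cdc20, the activator of the complex, rose with tamoxifen by 1.18 ± 0.34 (adjusted p = 0.0364), and its value with alpelisib added was -0.95 ± 0.28 (adjusted p = 0.0822). Cdca3, which helps degrade the mitotic inhibitor WEE1, had 0.82 ± 0.34 and -0.98 ± 0.28 (adjusted p = 0.105 and 0.073). The separase gene Espl1, at 0.22 and -0.20, and the cohesion gene Cdca5, at 0.26 and -0.26, were called in neither comparison either.

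Pttg1 encodes securin, the inhibitor of separase, and went against the rest. It is described after its values were seen. Its FPKM was 10.5 and 7.65 with estradiol, 24.1 with vehicle, 9.24 and 15.0 with tamoxifen, and 15.2 and 25.0 with both drugs. Estradiol libraries were below the vehicle library, and the alpelisib libraries lay above both tamoxifen libraries. It was the only gene of the 40 that fell with estradiol (-1.33 ± 0.38, adjusted p = 0.0386), a call lost without either estradiol library. The values of -0.97 ± 0.38 for tamoxifen (adjusted p = 0.0905) and 0.68 ± 0.31 for alpelisib added (adjusted p = 0.211) did not pass. Against estradiol it was higher with tamoxifen plus alpelisib (1.04 ± 0.31, adjusted p = 0.0312), and this call was lost without either estradiol library or alpelisib 2.

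A further 84 genes of mitosis were measured, in 4 lists that share no gene with the 40. With estradiol 67 rose and 2 fell, with tamoxifen 15 rose and 5 fell, and with alpelisib added 3 rose and 13 fell. The shares of all genes in these comparisons are given above. With tamoxifen the share that rose was close to the 14.9% of all genes, and the share that fell was under their 24.1%. The median log2 fold changes of the 84 genes in these comparisons were 1.49, 0.21 and -0.34. Under median-of-ratios scaling the count for tamoxifen was 21 higher and 3 lower of 83 genes. Of all 12314 tested genes, 2424 were higher and 2591 lower under that scaling. In the list of spindle, kinesin and cytokinesis genes the counts were 23 of 23 rising with estradiol, 8 rising and 0 falling with tamoxifen, and 0 rising and 5 falling with alpelisib added. Among its members, Kif22 rose with tamoxifen by 1.28 ± 0.22 (adjusted p = 0.00553) and changed with alpelisib added by -0.82 ± 0.18 (adjusted p = 0.0352).

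The kinetochore and centromere list had 26 measured genes, of which 21 rose and 1 fell with estradiol. With tamoxifen 1 rose and 1 fell, and with alpelisib added 1 rose and 3 fell. Mis12, a kinetochore assembly gene, rose from 0.757 with vehicle to 5.42 and 4.97 with tamoxifen (1.82 ± 0.20, adjusted p = 0.00118) and stood at 2.26 and 1.57 with alpelisib added (-1.10 ± 0.16, adjusted p = 0.0127). Zwint, also of the kinetochore, went the opposite way, at -0.98 ± 0.19 with tamoxifen (adjusted p = 0.00838) and 0.80 ± 0.15 with alpelisib added (adjusted p = 0.0255).

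Of 22 kinases, phosphatases and ubiquitin ligase regulators, 16 rose and 1 fell with estradiol, 5 rose and 1 fell with tamoxifen, and 2 rose and 3 fell with alpelisib added. Fbxo5, an inhibitor of the anaphase promoting complex, rose from 0.150 with vehicle to 2.44 and 1.84 with tamoxifen (1.44 ± 0.18, adjusted p = 0.00186) and was at 0.398 and 0.395 with alpelisib added (-1.16 ± 0.15, adjusted p = 0.00831). Wee1, the kinase that holds CDK1 inactive, was opposite, at 18.7 in vehicle, 4.36 and 6.01 under tamoxifen, and 16.3 and 17.3 with alpelisib added. Its log2 fold changes were -1.69 ± 0.20 with tamoxifen (adjusted p = 0.00143) and 1.54 ± 0.16 with alpelisib added (adjusted p = 0.0055). The CDK1-activating phosphatase Cdc25b also rose with alpelisib added (0.58 ± 0.13, adjusted p = 0.0392).

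The falls of Kif22, Mis12 and Fbxo5 and the rises of Zwint, Wee1 and Cdc25b with alpelisib added were lost without either alpelisib library. Without tamoxifen 1 all of these but that of Wee1 were lost too, and without tamoxifen 2 those of Zwint, Kif22 and Cdc25b. The tamoxifen calls of the 5 genes named with one were kept in every alternative fit, though Zwint was under 2-fold.

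Among 13 condensin and cohesin genes, 7 rose with estradiol. With tamoxifen the condensin gene Ncapg rose (0.95 ± 0.17, adjusted p = 0.00732), and the cohesin genes Rad21, Smc1a and Pds5b fell, by -0.62 ± 0.16, -0.63 ± 0.16 and -0.68 ± 0.16 (adjusted p = 0.0243, 0.025 and 0.0169). The 3 cohesin calls were lost without either alpelisib library or tamoxifen 2, and those of Rad21 and Smc1a also under median-of-ratios scaling, where 1 gene of this list was higher and 1 lower. Ncapg fell with alpelisib added (-0.82 ± 0.14, adjusted p = 0.0198), as did Ncapd2 (-0.56 ± 0.14, adjusted p = 0.0499). Of the 11 DREAM and MuvB genes, 5 rose and 0 fell with estradiol, and 2 rose under median-of-ratios scaling. With tamoxifen 0 rose and 2 fell, and with alpelisib added 1 rose and 1 fell. Of all tested genes 14.9% rose and 24.1% fell with tamoxifen, and 6.93% rose and 4.81% fell with alpelisib added. The shares of the condensin and cohesin list and of the DREAM list that fell with tamoxifen do not exceed that of all genes. Rbl2, which encodes the pocket protein p130 of DREAM, fell with tamoxifen (-1.29 ± 0.18, adjusted p = 0.00291) and rose with alpelisib added (0.79 ± 0.15, adjusted p = 0.0255). Rbbp4 also fell with tamoxifen (-0.67, adjusted p = 0.033), and Tfdp1 fell with alpelisib added (-0.82, adjusted p = 0.0338). Both of these calls were lost without either alpelisib library or tamoxifen 2, and that of Rbbp4 also without tamoxifen 1. With alpelisib added, the calls of Ncapg and Rbl2 were lost without either alpelisib library or tamoxifen 1, and that of Rbl2 also without tamoxifen 2. That of Ncapd2 was lost without any 1 of the 6 treated libraries and under quantile normalization.

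DNA replication is the step before mitosis. Of 33 genes of it measured, 27 rose and 0 fell with estradiol, 2 rose and 14 fell with tamoxifen, and 0 rose and 6 fell with alpelisib added. Of all tested genes, 22.7% rose and 12.8% fell with estradiol, 14.9% and 24.1% with tamoxifen, and 6.93% and 4.81% with alpelisib added. The median log2 fold changes of the 33 genes were 1.10, -0.59 and -0.39, and under median-of-ratios scaling 0.95, -0.44 and -0.38. Under that scaling 27 rose and 0 fell with estradiol, 2 rose and 11 fell with tamoxifen, and 0 rose and 9 fell with alpelisib added. Mcm3, a subunit of the replicative helicase, had an FPKM of 35.4 and 34.0 with estradiol, 16.9 with vehicle, 5.54 and 4.80 with tamoxifen, and 2.94 and 3.10 with both drugs. It fell with tamoxifen (-1.54 ± 0.16, adjusted p = 0.000841) and again with alpelisib added (-0.62 ± 0.13, adjusted p = 0.0316).

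The ribonucleotide reductase genes Rrm1 and Rrm2 were the 2 that rose with tamoxifen (1.06 ± 0.15 and 1.03 ± 0.30, adjusted p = 0.0031 and 0.0357). The call of Rrm2 was lost without any 1 of the tamoxifen or alpelisib libraries. Uhrf1, which maintains DNA methylation at replication forks, had the lowest p of the list with alpelisib added (-1.22 ± 0.13, adjusted p = 0.00554). That call and that of Mcm3 were lost without either alpelisib library, and that of Mcm3 also without either tamoxifen library. Relative to vehicle, the median of the mitosis genes was 0.67 and 0.74 in the tamoxifen libraries, where that of the replication genes was -0.62 and -0.41. With tamoxifen plus alpelisib the medians were 0.03 and 0.03 for mitosis and -0.76 and -0.74 for replication. The difference between the lists was not tested.

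**Figure D4:**
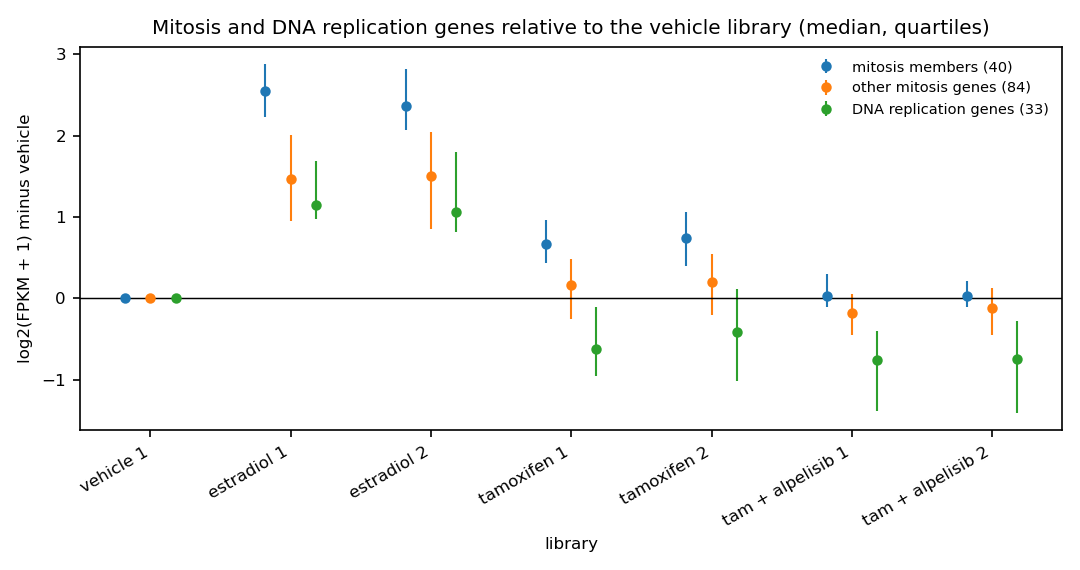
Median of log2(FPKM + 1) relative to the vehicle library for the 40 mitosis genes, 84 other mitosis genes and 33 DNA replication genes in each of the 7 libraries, with bars from the first to the third quartile of the genes. The 3 sets lie above vehicle with estradiol. With tamoxifen the replication genes lie below vehicle at -0.62 and -0.41 and the 40 mitosis genes above it at 0.67 and 0.74. The 84 other mitosis genes lie between them at 0.17 and 0.20, with quartiles on both sides of vehicle.

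The libraries of a group differed from each other in a way that followed transcript length. Between the estradiol libraries, the FPKM ratio of library 2 to library 1 had a Spearman rho of 0.73 with transcript length over the 40 genes, and of 0.57 over 10199 genes. With tamoxifen the values were -0.51 and -0.49 (9436 genes), and with tamoxifen plus alpelisib 0.00 and -0.09 (9493 genes). These are descriptions across genes, which share their libraries and are not replicates. The 12 mitosis genes of at least 4000 bases had a median ratio of 1.05 with estradiol and 0.899 with tamoxifen, and the 11 under 2000 bases had 0.711 and 1.42. Long genes such as Mki67 and short genes such as Ube2c carry opposite differences between mice of a group, which enter their standard errors. The part of length in the results was not tested.

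**Figure D5:**
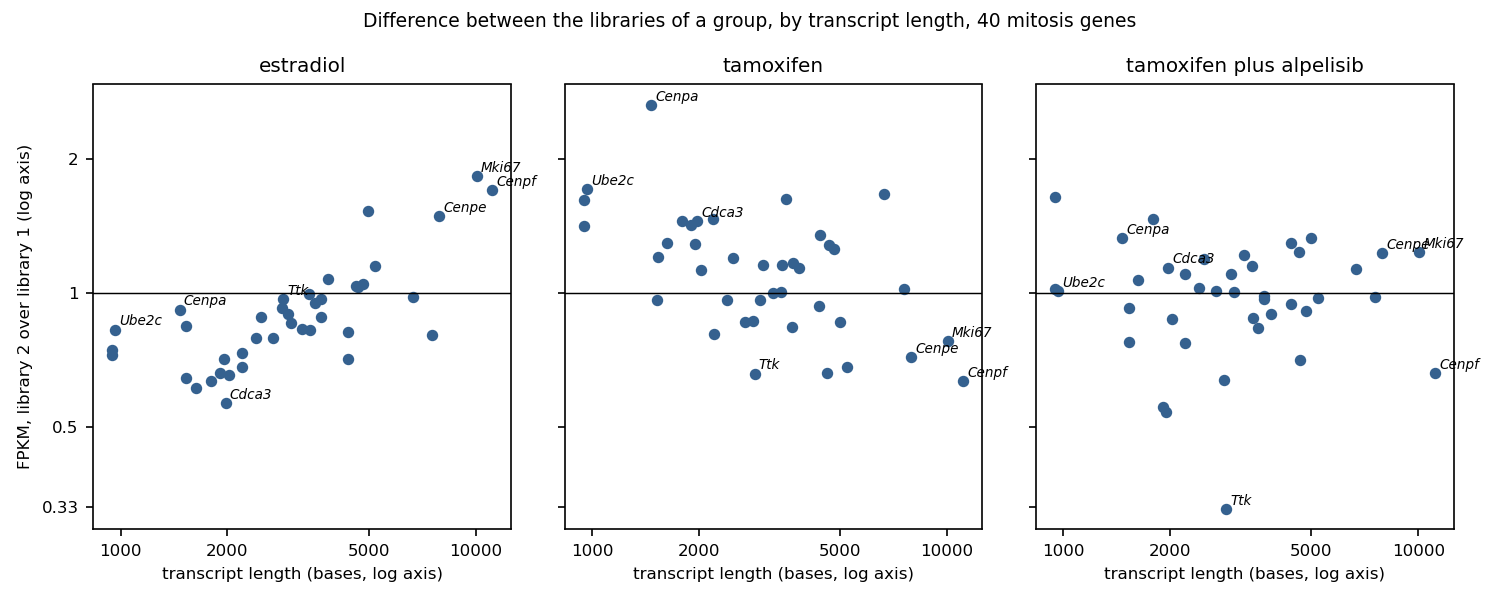
FPKM of library 2 over library 1 (log axis) against transcript length in bases (log axis) for the 40 mitosis genes in the 3 groups with 2 libraries, with the line at equal values. The points rise with length for estradiol, fall for tamoxifen and show no slope for tamoxifen plus alpelisib (Spearman rho 0.73, -0.51 and 0.00).

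Markers of other cells also moved between the groups. The summed FPKM of 9 stromal markers was 188 and 180 with estradiol, 257 with vehicle, 54.4 and 53.7 with tamoxifen, and 120 and 128 with both drugs, and 8 of 8 tested fell with tamoxifen. That of 5 smooth muscle markers was 70.5 with vehicle and 6.14 to 20.8 in the other libraries. The endothelial sum was 9.16 with vehicle, 6.73 and 5.26 with estradiol and 0.907 to 1.23 in the drug groups. These 3 lists were highest in the vehicle library, where the mitosis genes were among their lowest. With estradiol, where the mitosis genes were highest, the stromal and endothelial sums came second to vehicle. The epithelial sum given above was also highest with vehicle.

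Erythroid markers moved in the direction of the mitosis genes in the drug comparisons. Of their 4 tested, 4 rose with tamoxifen and 2 fell with alpelisib added, and their sum was 30.4 with vehicle, 1238 and 938 with tamoxifen, 237 and 262 with tamoxifen plus alpelisib, and 73.6 and 109 with estradiol. The sum of 10 leukocyte markers was 47.6 and 30.4 with estradiol, 25.6 with vehicle, 22.0 and 34.1 with tamoxifen, and 68.4 and 69.5 with both drugs, with the lymphocyte genes Cd3e and Cd79a at or near 0. The part of these markers in the result was not tested.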

How the data were processed

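Total RNA libraries of 7 samples in 4 groups were read from 1 table, whose FPKM values were deposited by the authors for 24353 genes. CASAVA, Bowtie and Cufflinks are named without versions, per the submitters' processing notes, and hg19 is the only build named there although the samples are mouse; the sources used here do not say how that build was used. FPKM divides by transcript length and library total, so a few very abundant genes can shift all others, and it carries no counts. Depth was read from the value of 1 fragment in genes of 1 annotated transcript, and gave 16100000 to 19300000 fragments in 6 libraries. Precision at this depth is lowest for members of few fragments, such as Ttk.

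Values were analysed as log2(FPKM + 1), a pseudocount of 1, for the 12314 genes that reached an FPKM of 1 in any library; 6155 genes were at 0 in every library. All 7 libraries entered 1 fit of 4 group means with limma 3.58.1 (empirical Bayes with a trend) in R 4.3.3, on 3 residual and 3.27 prior degrees of freedom, and p was adjusted within each of 6 comparisons by the Benjamini-Hochberg method. The procedure was also run on simulated data with noise drawn independently for each gene and library. That noise lacked the length-linked differences between libraries described above, so the run is no evidence for the calls made here. Tables and figures were made with Python 3.11.15, numpy 2.4.6, pandas 2.3.3 and matplotlib 3.10.9.

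The members and gene lists were chosen with earlier results of these data known. All 40 members are accounted for. Values in every library are given for Mki67, Top2a, Foxm1, Ccnb1 and Cdk1 and for the member of lowest p in each role group with tamoxifen and with alpelisib added; of the other lists, up to 4 genes of lowest p per comparison and genes called against most of their list could be named. Members named outside this rule are said to be so. Sgol2 and 1 erythroid marker were not matched by symbol. Transcript lengths and shared exon bases came from a mouse gene annotation, and promoter sequence from RefSeq. Of the 40 members 10 share exon bases with another gene. Those not given above are Plk1 (7.09%), Nusap1 (4.25%) and Cdc20 (2.96%), with genes on the opposite strand. Foxm1 shares 3.09% with Tex52 and 2.08% with Gm44596 on its own strand. Alternatives were median-of-ratios scaling, quantile normalization, no filter, an FPKM of 1 reached in 2 libraries, a pseudocount of 0.1, robust empirical Bayes, only the compared groups, a block on mouse number, a fold of at least 2, and each library left out.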

Additional observations from a re-analysis of the deposited data

How the results depend on the processing

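The alternative fits of the 40 genes were set against the main fit, without the rule of a fold of at least 2. Of their values, 3233 kept their side of the threshold, 164 lost a call and 70 gained one. No value called in the main or the alternative fit changed sign. Changes of sign between values called in neither fit were not counted apart and are among the 3233. The count with tamoxifen against vehicle (20) was 12 with the replicate block and 9 at a fold of at least 2, and 10 to 23 when 1 library was left out. That with alpelisib added to tamoxifen (16) was 5 without the filter, 5 with the replicate block and 4 at a fold of at least 2, and 0 to 21 when 1 library was left out. Tamoxifen plus alpelisib against vehicle (4) gave 7 with only the compared groups, 2 at a fold of at least 2, and 1 to 6 when 1 library was left out. Estradiol against vehicle (40) gave 39 to 40, tamoxifen against estradiol (38) 37 to 38 and tamoxifen plus alpelisib against estradiol (39) 37 to 39 over the libraries left out. The cause of these changes was not tested, beyond the fewer libraries or stricter rule of each. The numbers of calls held in every alternative fit, again apart from the fold rule, in the order of these 6 comparisons, were 8, 0, 1, 39, 37 and 37. Mouse numbers mark different mice in each group and are not stated to pair the samples. Deviations of libraries of the same number correlated at -0.40, -0.18 and 0.27 across the 3 pairs of groups. With 2 libraries per group these values cannot tell whether libraries of equal number were handled together. The block gave 39, 38, 39 and 3 calls in the other comparisons. With 1 vehicle library and 2 of each other group, low members such as Ttk rest on few fragments, and a missed threshold does not show equal levels.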

Other observations

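In Zwint, Rbl2 and Wee1 vehicle was high, tamoxifen low and the alpelisib-treated libraries lay between them. For Rbl2 and Wee1 tamoxifen was lowest. Pttg1 differed, as estradiol had its lowest mean and its second alpelisib library, at 25.0, lay above vehicle at 24.1. The 3 genes are gathered here after their values were seen, so no test is given. Zwint had an FPKM of 18.5 and 14.8 with estradiol, 33.6 with vehicle, 16.4 and 16.8 with tamoxifen, and 28.0 and 31.1 with both drugs. Rbl2 had 5.46 and 6.89 with estradiol, 8.13 with vehicle, 2.96 and 2.52 with tamoxifen, and 5.44 and 5.44 with both drugs. Wee1, whose drug values are given above, stood at 10.9 and 10.7 with estradiol. In all 3 genes the tamoxifen libraries lay below vehicle and below both alpelisib libraries, and those of Zwint lay within the estradiol range.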
